A study of Mus musculus with 12 samples.

Results

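The SOCS family (suppressors of cytokine signalling) was measured in mouse splenic B cells with and without a DREAM transgene, before and after 2 days of stimulation. The family comprises 8 genes, Cish and Socs1 to Socs7. Every probe set annotated to one of these symbols alone was taken, which gave 24 of the 45037 probe sets tested, or 8 of 18193 annotated genes. Cish and Socs1 each had 1 probe set, Socs5 had 2, Socs3 and Socs6 had 3, Socs4 and Socs7 had 4, and Socs2 had 6.

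RNA from 12 B cell preparations was hybridised to Affymetrix Mouse Genome 430 2.0 arrays, which read each transcript with sets of short probes. The 4 groups held 3 arrays each, from preparations that the submitters describe as independent biological replicates. Transgenic B cells stimulated for 2 days with lipopolysaccharide (LPS, 20 µg/ml) and interleukin-4 (IL-4, 10 ng/ml) were set against wild type B cells stimulated in the same way. Transgenic B cells on day 0, without stimulation, were set against wild type B cells on day 0. All the cells came from spleen and were isolated by depletion with CD43 beads, with a stated purity above 98%. The transgenic mice carry a construct that the labels call EFLmDREAM, of the calcium-binding repressor DREAM, whose mouse gene is Kcnip3. The promoter that drives it, the strain, the age and any pooling of mice are not given in the sources used here.

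SOCS proteins act as negative feedback on cytokine receptors that signal through JAK kinases and STAT transcription factors. Each has an SH2 domain, which binds phosphorylated tyrosines, and a SOCS box, which recruits elongins and a cullin to mark bound proteins for degradation. In lymphocytes CIS (the product of Cish) and SOCS2 are known STAT5-induced genes, SOCS1 restrains interferon and IL-4 signalling, and SOCS3 restrains receptors of the gp130 type.

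STAT factors bind DNA at palindromes of the form TTCNNNGAA, and interferon regulatory factors bind repeats of GAAA, any 2 bases and GAAA again. These letters were searched on both strands of RefSeq promoter windows (build GRCm38.p6) that run from 250 bases before to 50 bases after each annotated start. A window was found for 4 of the 8 genes, Cish, Socs1, Socs3 and Socs4. The stretches below are shown because they carry the matches in genes whose levels differed between the groups, with the matching letters in capitals, 5′ to 3′ on the gene's strand.
Cish: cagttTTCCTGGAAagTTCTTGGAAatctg
Socs1: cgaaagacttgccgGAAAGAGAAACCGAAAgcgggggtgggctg
Socs3: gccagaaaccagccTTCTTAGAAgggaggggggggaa

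The Cish stretch lies at chr9:107296654-107296683 on the plus strand and holds 2 TTCNNNGAA matches, which begin at positions 1 and 12 from the annotated start. The Socs1 stretch lies at chr16:10785590-10785633 on the minus strand and holds 2 overlapping matches to the interferon regulatory factor repeat between positions -83 and -68. The Socs3 stretch lies at chr11:117969498-117969534 on the minus strand and holds 1 TTCNNNGAA match between positions -154 and -146. The Socs4 window held neither set of letters. Of 32851 promoter windows, 8.3% held TTCNNNGAA and 3.44% held the interferon regulatory factor repeat. A match describes these letters and not binding.

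Several features of the arrays bear on the values. Array medians lay between 5.36 and 5.41 log2 units in the stimulated groups and between 5.97 and 6.05 in the unstimulated groups. Genotypes were therefore compared on the deposited log2 values, and stimulated with unstimulated cells after quantile normalization. On the deposited scale the median change of all probe sets with stimulation was -0.40 in wild type cells, against 0.0374 after quantile normalization. The actin 5′ minus 3′ difference, a sign of RNA integrity, was -2.22 in unstimulated wild type replicate 1 and between -0.67 and -0.54 in the other 5 unstimulated arrays. The corresponding Gapdh difference was -1.78 in that array and -0.38 to 0.02 in the other 5. All 6 measured B cell markers were above the array median in every group. The granulocyte markers summed to 10500 to 15000 unlogged units in unstimulated transgenic arrays and 966 to 1060 in unstimulated wild type arrays. The Kcnip3 probe sets did not pass the test between genotypes (adjusted p = 0.279 and 0.612 unstimulated, 0.976 and 0.98 stimulated). Whether they read the transgene is not given. In bulk samples, fewer cells of a type and less RNA per cell cannot be told apart.

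After 2 days with LPS and IL-4, Cish, Socs1 and 4 of the 6 Socs2 probe sets were higher and Socs5 was lower in both genotypes than on day 0. The stimulated cells were all from day 2 and the unstimulated cells all from day 0, so stimulation and time in culture cannot be told apart. In wild type cells 17 of the 24 family probe sets passed the test (limma, Benjamini-Hochberg adjusted p under 0.05), 9 higher and 8 lower, where 56.8% of all probe sets passed, 30.7% higher and 26.1% lower. In transgenic cells 13 passed, 8 higher and 5 lower, where 55.2% of all probe sets passed, 30.1% higher and 25.1% lower. The median change of the 24 was 0.09 in transgenic cells and -0.13 in wild type cells, and that of all probe sets was 0.0403 and 0.0374. Stimulated and unstimulated arrays did not overlap for 17 of the 24 in transgenic cells (64.6% of all probe sets) and for 19 in wild type cells (61.3% of all probe sets). The split into higher and lower depends on the scaling. On the deposited values it was 5 higher and 14 lower in each genotype, and with array medians subtracted it was 13 higher and 3 lower in transgenic cells and 10 higher and 5 lower in wild type cells. The changes of Cish, Socs1, Socs5 and of Socs2 at its 3 most changed probe sets kept their direction and passed under all 3 scalings.

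**Figure D1:**
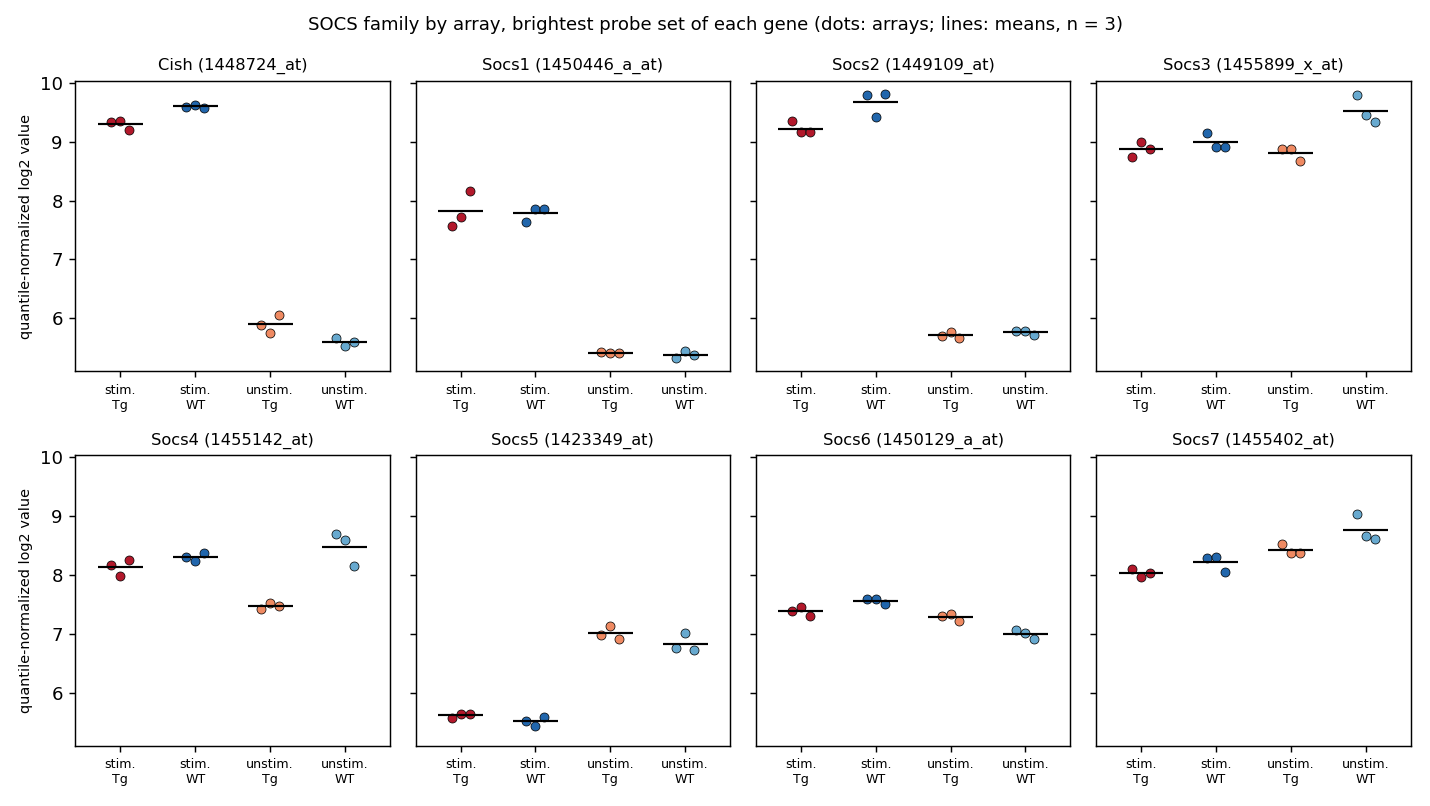
Quantile-normalized log2 level of the brightest probe set of each SOCS gene in each of the 12 arrays (points) with the group mean (line), for stimulated transgenic, stimulated wild type, unstimulated transgenic and unstimulated wild type cells. Cish, Socs1 and Socs2 are high in the stimulated arrays and Socs5 is high in the unstimulated arrays, while Socs3 is highest in unstimulated wild type arrays. Levels of different genes cannot be compared.

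Cish encodes CIS, which binds activated receptors at the sites where STAT5 docks. Its quantile-normalized log2 level was 9.34, 9.36 and 9.21 in stimulated transgenic cells and 5.89, 5.75 and 6.06 in unstimulated transgenic cells. It was 9.60, 9.63 and 9.58 in stimulated wild type cells and 5.66, 5.52 and 5.60 in unstimulated wild type cells. No group overlapped another, and the order from high to low was stimulated wild type, stimulated transgenic, unstimulated transgenic and unstimulated wild type. The change with stimulation was 3.40 ± 0.086 log2 units (SE) in transgenic cells (adjusted p = 1.11e-11). In wild type cells it was 4.01 ± 0.086 (adjusted p = 2.47e-12).

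Socs1 encodes a direct inhibitor of JAK kinase activity. Its level was 7.57, 7.73 and 8.16 in stimulated transgenic cells and 5.42, 5.4 and 5.4 in unstimulated transgenic cells. It was 7.64, 7.86 and 7.86 in stimulated wild type cells and 5.32, 5.44 and 5.38 in unstimulated wild type cells. The genotypes overlapped in both states, and the stimulated arrays lay above the unstimulated ones. The change was 2.41 ± 0.12 in transgenic cells (adjusted p = 3.8e-09) and 2.40 ± 0.12 in wild type cells (adjusted p = 3.38e-09).

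Socs2 is best known as a brake on growth hormone signalling through STAT5. Its probe set 1449109_at read 9.35, 9.16 and 9.17 in stimulated transgenic cells and 5.69, 5.76 and 5.67 in unstimulated transgenic cells. It read 9.80, 9.43 and 9.81 in stimulated wild type cells and 5.78, 5.79 and 5.71 in unstimulated wild type cells. The unstimulated groups overlapped, and both stimulated groups stood above them without overlapping each other. The change was 3.52 ± 0.10 in transgenic cells and 3.92 ± 0.10 in wild type cells (adjusted p = 2.78e-11 and 9.95e-12).

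The second bright Socs2 probe set, 1418507_s_at, read 9.63, 9.50 and 9.23 in stimulated transgenic cells and 4.21, 3.97 and 4.10 in unstimulated transgenic cells. It read 9.88, 9.69 and 9.97 in stimulated wild type cells and 4.35, 4.00 and 4.01 in unstimulated wild type cells. The stimulated arrays stood far above the unstimulated ones in both genotypes, with a log2 change of 5.36 ± 0.13 in transgenic cells and 5.73 ± 0.13 in wild type cells. The unstimulated level lay below the array median in all 6 arrays. No background call is given in the sources used here, so no fold is given. The unstimulated levels of Socs1 and 1446085_at lay below the array median too, as did that of Cish in wild type cells. Another probe set, 1446085_at, changed by 2.20 ± 0.18 in transgenic cells and 2.26 ± 0.18 in wild type cells. Among the other 3 Socs2 probe sets, 1438470_at was lower with stimulation in transgenic cells at -0.40 (adjusted p = 0.0117) and read -0.27 in wild type cells (adjusted p = 0.0724). On the deposited scale those values were -0.99 and -0.85. At 1442586_at the change was 0.70 ± 0.16 in transgenic and 0.81 ± 0.16 in wild type cells, and 0.08 and 0.21 on the deposited scale, where neither passed. At 1441476_at it was 0.17 in transgenic cells (adjusted p = 0.138) and 0.28 ± 0.095 in wild type cells (adjusted p = 0.0239), and -0.11 and -0.03 on the deposited scale. Both 1438470_at and 1441476_at were above the array median in 0 of 12 arrays.

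Socs5 encodes a member with a long amino-terminal region, described in mouse T cells as an inhibitor of IL-4 receptor signalling. Its probe set 1423350_at read 4.74, 4.54 and 4.78 in stimulated transgenic cells and 7.61, 7.68 and 7.32 in unstimulated transgenic cells. It read 4.96, 4.80 and 4.81 in stimulated wild type cells and 7.67, 7.24 and 7.26 in unstimulated wild type cells. All 6 stimulated arrays lay below all 6 unstimulated arrays. The log2 change was -2.85 ± 0.13 in transgenic cells (adjusted p = 1.04e-09) and -2.54 ± 0.13 in wild type cells (adjusted p = 2.56e-09). No fold is given, because the stimulated level lay below the array median. The other probe set, 1423349_at, read 5.57, 5.63 and 5.64 in stimulated transgenic cells and 6.98, 7.13 and 6.92 in unstimulated transgenic cells. It read 5.52, 5.44 and 5.59 in stimulated wild type cells and 6.76, 7.02 and 6.72 in unstimulated wild type cells. It also fell, by 1.39 ± 0.092 in transgenic cells and by 1.31 ± 0.092 in wild type cells on the log2 scale.

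Socs3 encodes an inhibitor that binds gp130-type receptors and JAKs together. Its probe set 1455899_x_at read 8.74, 9.0 and 8.88 in stimulated transgenic cells and 8.87, 8.87 and 8.67 in unstimulated transgenic cells. It read 9.15, 8.92 and 8.91 in stimulated wild type cells and 9.79, 9.46 and 9.34 in unstimulated wild type cells. Unstimulated wild type cells stood apart above the other 3 groups, which overlapped. The 3 Socs3 probe sets fell with stimulation in wild type cells by 0.65 ± 0.11, 0.53 ± 0.12 and 0.38 ± 0.12 (adjusted p = 0.000198, 0.00203 and 0.0126). With array medians subtracted these changes were -0.32, 0.0833 and 0.0633, so only 1416576_at kept its direction and its call. In transgenic cells the 3 changes were -0.05, 0.07 and 0.07 (adjusted p = 0.747, 0.64 and 0.648), against -0.42, -0.01 and -0.18 on the deposited scale and 0.22, 0.63 and 0.46 with array medians subtracted. The third probe set, 1456212_x_at, also lost its call in wild type cells without unstimulated wild type replicate 1 (-0.28, adjusted p = 0.0523) or stimulated wild type replicate 3 (-0.33, adjusted p = 0.0521).

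**Figure D2:**
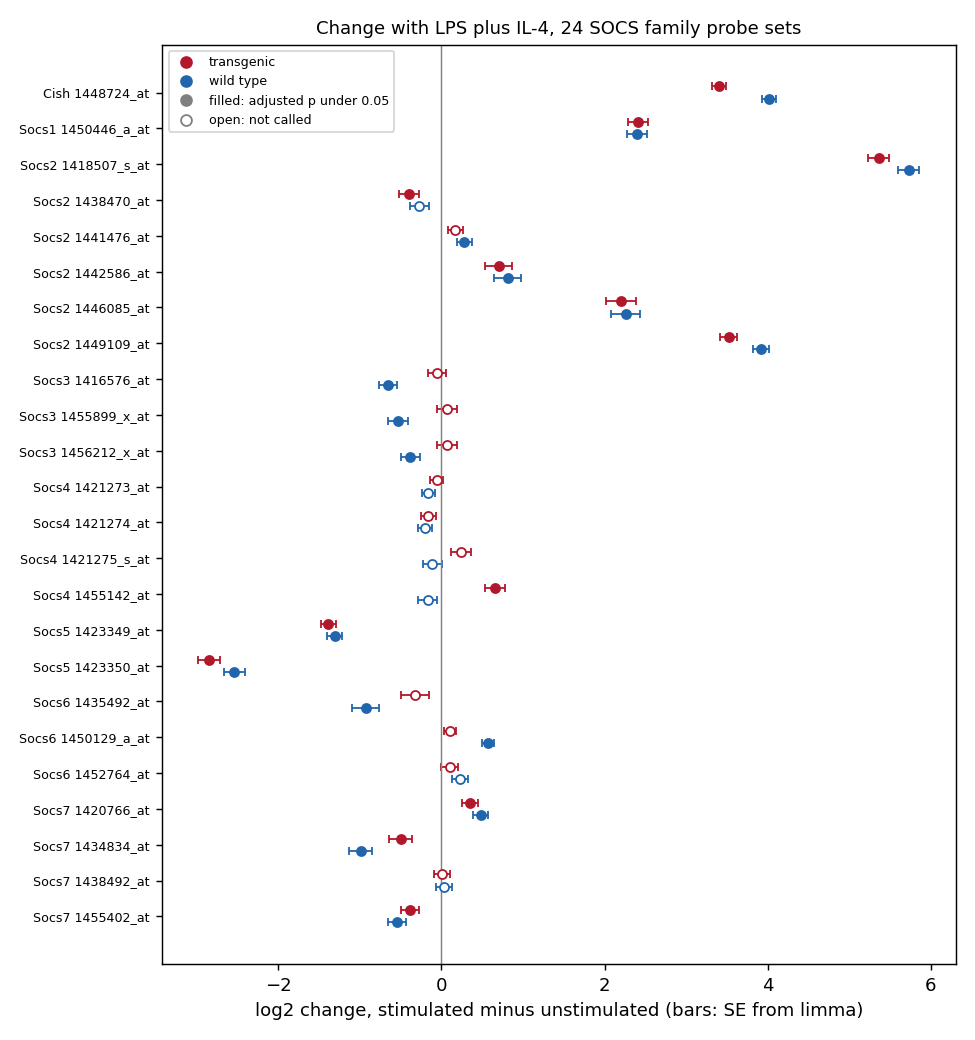
Log2 change with stimulation (quantile-normalized values, stimulated minus unstimulated) for the 24 SOCS probe sets in transgenic and wild type cells, with bars for the standard error and filled points for an adjusted p under 0.05. Socs2 1418507_s_at lies farthest to the right at 5.36 and 5.73, and Socs5 1423350_at farthest to the left at -2.85 and -2.54.

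The substrates of Socs4, Socs6 and Socs7 are less well defined and include the EGF receptor for Socs4. These genes changed less with stimulation than Cish, Socs1 and Socs5, and differed between their probe sets. Socs7 1434834_at was lower with stimulation, with a log2 change of -0.50 ± 0.14 in transgenic cells and -0.99 ± 0.14 in wild type cells (adjusted p = 0.0103 and 6.07e-05). In transgenic cells that call was lost with array medians subtracted (-0.27). Another Socs7 probe set, 1455402_at, was also lower, with changes of -0.38 ± 0.11 and -0.55 ± 0.11, which came to 0.0167 and -0.13 with array medians subtracted. A further one, 1420766_at, was higher at 0.35 ± 0.094 and 0.48 ± 0.094, and lower on the deposited scale at -0.27 and -0.10. Socs7 probe sets thus moved in both directions after quantile normalization, and the direction of 1455402_at and 1420766_at changed with the scaling. On the deposited scale all 4 Socs7 probe sets were below 0 in wild type cells. Those values were -0.10 at 1420766_at, -1.30 at 1434834_at, -0.58 at 1438492_at and -0.74 at 1455402_at.

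Socs6 1450129_a_at changed by 0.10 in transgenic cells (adjusted p = 0.272) and by 0.57 ± 0.073 in wild type cells (adjusted p = 1.92e-05), against -0.39 and 0.10 on the deposited scale. Socs6 1435492_at changed by -0.32 in transgenic cells (adjusted p = 0.133) and by -0.93 ± 0.17 in wild type cells (adjusted p = 0.000515). On the deposited scale these were -0.93 (adjusted p = 0.00018) and -1.52, and without unstimulated wild type replicate 1 the transgenic change of -0.32 also passed (adjusted p = 0.0158). Socs4 1455142_at changed by 0.66 ± 0.12 in transgenic cells (adjusted p = 0.000463) and by -0.17 in wild type cells (adjusted p = 0.242). On the deposited scale the Socs4 values were 0.29 (adjusted p = 0.0557) and -0.39 (adjusted p = 0.0162), and with array medians subtracted they were 0.93 and 0.23. The other 3 Socs4 probe sets did not pass the test in either genotype after quantile normalization. On the deposited scale all 3 were lower with stimulation in both, at -0.69, -0.42 and -0.39 in transgenic cells and -0.75, -0.50 and -0.71 in wild type cells. With stimulation 5 of 6 B cell markers were lower in each genotype. In transgenic cells 12 of 12 granulocyte, 13 of 14 monocyte and macrophage and 6 of 7 erythroid markers were lower, and in wild type cells 7 of 12, 9 of 14 and 4 of 7. The part of these cells in the SOCS changes was not tested.

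Between genotypes, unstimulated transgenic cells had lower signals than unstimulated wild type cells at all 3 Socs3 probe sets, Socs4 1455142_at and Socs7 1434834_at. The other Socs4 and Socs7 probe sets did not pass. Signals were higher for Cish, a call that held in 13 of 18 alternative settings, and at Socs6 1450129_a_at, which held in 5 of 18. Of the 24 family probe sets 7 passed the test, 2 higher and 5 lower, where 9.45% of all probe sets passed, 4.47% higher and 4.98% lower. The changes ranged from -0.91 to 0.34 with a median of -0.01, and the median of all probe sets was 0.00667. For 8 of the 24, all arrays of one genotype lay on one side of the other's, as they did for 24.3% of all probe sets. In the comparison limited to the 6 unstimulated arrays 3 passed, 2 of Socs3 and 1 of Socs4. Without unstimulated wild type replicate 1, the array with the low 5′ actin signal, 5 passed.

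Socs3 was lower in transgenic cells at all 3 of its probe sets. Its deposited log2 level at 1416576_at was 7.87, 8.19 and 7.84 in unstimulated transgenic cells and 8.66, 8.62 and 8.38 in unstimulated wild type cells. At 1455899_x_at it was 8.88, 8.91 and 8.69 in transgenic cells and 9.80, 9.46 and 9.30 in wild type cells. At both, every transgenic array lay below every wild type array, with differences of -0.59 ± 0.11 (adjusted p = 0.006) and -0.69 ± 0.13 (adjusted p = 0.00472). These 2 probe sets passed in 18 of 18 alternative settings, with differences between -0.70 and -0.52 and between -0.80 and -0.55.

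At the third Socs3 probe set, 1456212_x_at, the level was 8.36, 8.46 and 8.16 in transgenic cells and 9.08, 8.84 and 8.60 in wild type cells. The groups did not overlap here either, and the difference was -0.51 ± 0.12 (adjusted p = 0.0215). That call was lost without wild type replicate 1 (-0.39), wild type replicate 2 (-0.51), transgenic replicate 1 (-0.53) or transgenic replicate 3 (-0.43). Probe sets whose names end in _x_at contain probes that can match other transcripts as well.

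Socs4 1455142_at showed the largest genotype difference of the family. It read 7.65, 7.75 and 7.67 in unstimulated transgenic cells and 8.83, 8.71 and 8.26 in unstimulated wild type cells. The transgenic arrays lay closely together below the more scattered wild type arrays, and the difference was -0.91 ± 0.13 (adjusted p = 0.000895). It passed in 18 of 18 alternative settings, between -1.08 and -0.80. The other 3 Socs4 probe sets differed by -0.03, -0.12 and -0.15 and did not pass.

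Socs7 1434834_at read 8.04, 7.92 and 8.0 in unstimulated transgenic cells and 9.01, 8.69 and 8.28 in unstimulated wild type cells. The groups did not overlap, and the difference was -0.67 ± 0.15 (adjusted p = 0.0139). Without wild type replicate 1, the highest array, it was -0.50 (adjusted p = 0.0349). The brightest Socs7 probe set, 1455402_at, read 8.59, 8.49 and 8.43 in transgenic cells and 9.13, 8.76 and 8.65 in wild type cells. These groups did not overlap, and the difference of -0.34 ± 0.12 did not pass (adjusted p = 0.0889). Without wild type replicate 1 it was -0.20. The other Socs7 probe sets differed by 0.20 at 1420766_at and 0.01 at 1438492_at.

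Cish was higher in unstimulated transgenic cells, at 6.22, 6.07 and 6.40, than in unstimulated wild type cells, at 5.93, 5.81 and 5.93. The wild type values lay below their array medians, and Cish was above the median in 9 of 12 arrays. The difference was 0.34 ± 0.089 (adjusted p = 0.0308). Its call was lost without wild type replicate 1 (0.36), wild type replicate 2 (0.30), transgenic replicate 1 (0.34) or transgenic replicate 3 (0.25). Socs6 1450129_a_at read 7.55, 7.59 and 7.46 in transgenic cells and 7.34, 7.29 and 7.17 in wild type cells. The groups did not overlap, but the difference of 0.27 ± 0.076 (adjusted p = 0.0455) passed in 5 of 18 alternative settings. It was lost without any single array other than unstimulated wild type replicate 1 and stimulated transgenic replicate 3, at values from 0.22 to 0.30. A second Socs6 probe set, 1435492_at, went the other way at -0.52 ± 0.16 (adjusted p = 0.067), and at -0.28 without unstimulated wild type replicate 1.

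**Figure D3:**
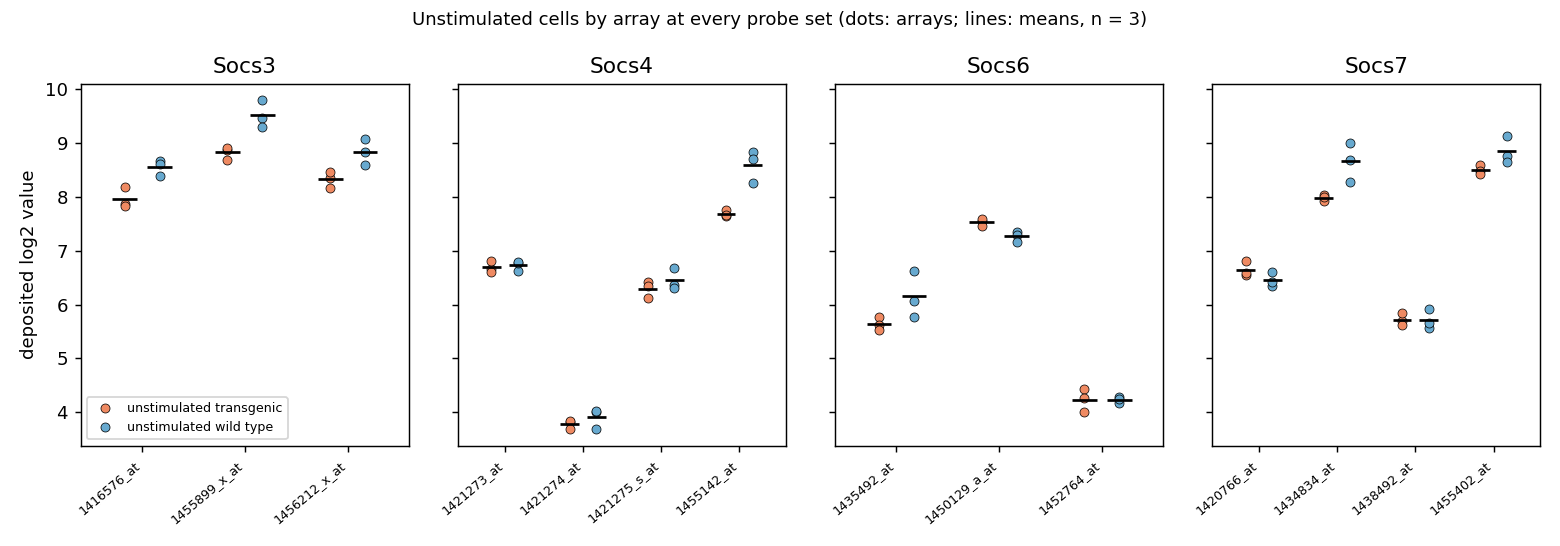
Deposited log2 values of every Socs3, Socs4, Socs6 and Socs7 probe set in each unstimulated transgenic and unstimulated wild type array (points), with group means as lines (n = 3 each). Transgenic arrays lie below wild type arrays at all 3 Socs3 probe sets, Socs4 1455142_at and Socs7 1434834_at, and above them at Socs6 1450129_a_at.

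For Socs1, Socs2 and Socs5 no probe set passed between unstimulated genotypes. The Socs1 difference was 0.06 ± 0.14, with a 95% interval from -0.23 to 0.36. The Socs5 differences were 0.19 ± 0.092, with an interval from -0.01 to 0.39, and 0.12 ± 0.12, with an interval from -0.15 to 0.39. Socs2 differed by -0.01 at 1449109_at and by -0.02 at 1418507_s_at.

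Markers of other blood cells moved with the genotype in the same arrays. In unstimulated transgenic cells 11 of 12 granulocyte markers and 11 of 14 monocyte and macrophage markers were higher, the second list summing to 12300 to 17000 unlogged units against 6980 to 8400 in wild type cells. Of the erythroid markers 5 of 7 were higher (1410 to 2110 against 377 to 669), of the T and NK cell markers 4 of 12 (1670 to 1870 against 968 to 1250), of the plasma cell markers 3 of 4 (15100 to 15500 against 9460 to 11200), and of the platelet markers 1 of 5 (511 to 550 against 430 to 490). Of the 6 B cell markers 1 was lower, and their sum was 30100 to 30800 in transgenic cells and 27700 to 33700 in wild type cells. The part of these cells in the SOCS differences was not tested. Unstimulated wild type replicate 1 was the highest wild type array for all 3 Socs3 probe sets, Socs4 1455142_at and Socs7 1434834_at, and the part of RNA integrity was not tested beyond the values without that array.

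**Figure D4:**
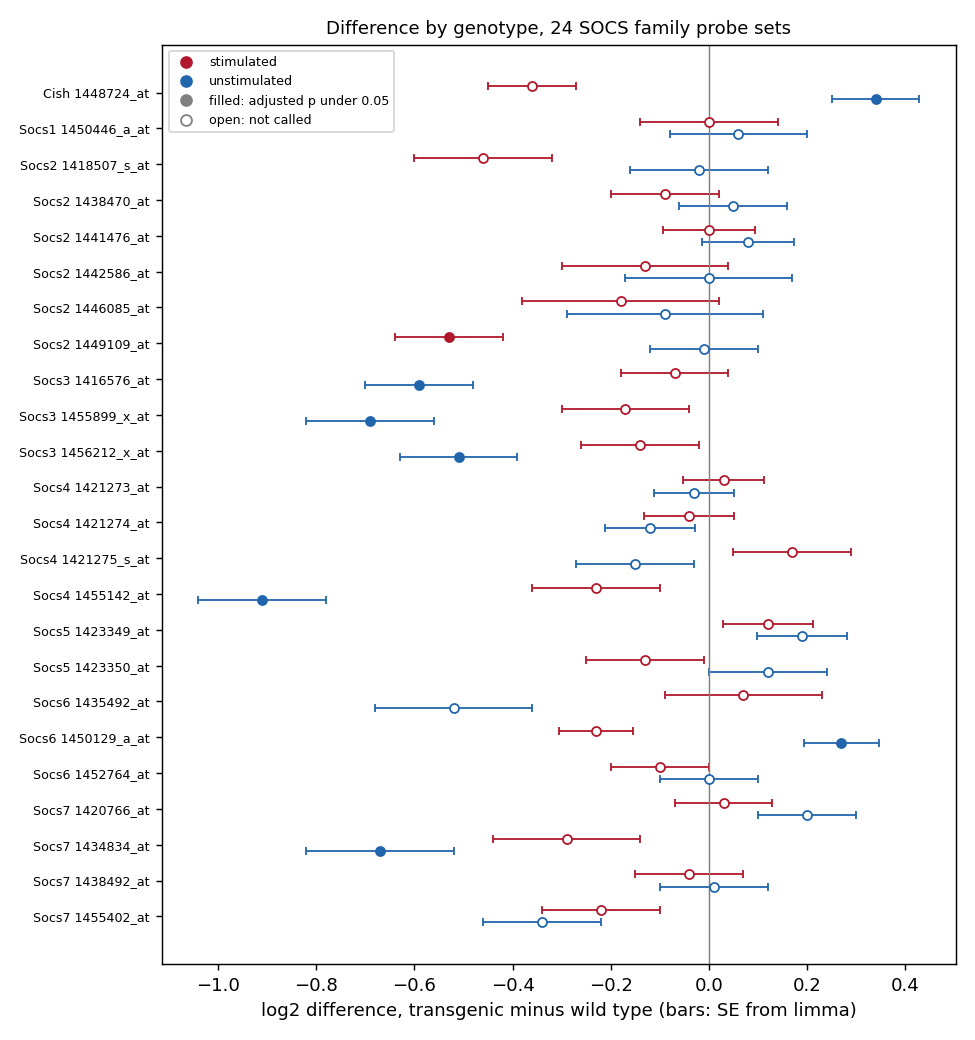
Log2 difference between genotypes (deposited values, transgenic minus wild type) for the 24 SOCS probe sets in stimulated and in unstimulated cells, with bars for the standard error and filled points for an adjusted p under 0.05. The Socs3 probe sets lie between -0.69 and -0.51 in unstimulated cells and between -0.17 and -0.07 in stimulated cells, while Socs2 1449109_at lies at -0.53 in stimulated and -0.01 in unstimulated cells.

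After stimulation the genotypes differed at 1 family probe set, which read Socs2 and was lower in transgenic cells. This was 1 of 24 (4.17%), where 1.86% of all probe sets passed, 0.868% higher and 0.995% lower, with no family probe set higher. At an unadjusted p under 0.05, 4 were lower and 0 higher. These were Socs2 1449109_at and 1418507_s_at, Cish and Socs6 1450129_a_at, so Socs2 counts more than once. In unstimulated cells 7 were lower and 2 higher at that threshold. The share of all probe sets there was not computed, so no tendency of the family can be read from these counts. The changes between stimulated genotypes ranged from -0.53 to 0.17 with a median of -0.11, against 0.00667 for all probe sets. For 6 of the 24, all arrays of one genotype lay on one side of the other's, as they did for 19.0% of all probe sets.

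Socs2 1449109_at read 9.36, 9.12 and 9.15 in stimulated transgenic cells and 9.86, 9.46 and 9.90 in stimulated wild type cells. All transgenic arrays lay below all wild type arrays, and the difference was -0.53 ± 0.11 (adjusted p = 0.0253). The call was lost without wild type replicate 1 (-0.47), wild type replicate 3 (-0.45), transgenic replicate 2 (-0.49) or transgenic replicate 3 (-0.50). The second bright Socs2 probe set, 1418507_s_at, read 9.66, 9.50 and 9.21 in transgenic cells and 9.96, 9.74 and 10.06 in wild type cells. These groups did not overlap, and the difference of -0.46 ± 0.14 did not pass (adjusted p = 0.145). At 1446085_at, which also rose with stimulation, the difference was -0.18 ± 0.20 (adjusted p = 0.866). The remaining Socs2 probe sets differed by -0.13 at 1442586_at, -0.09 at 1438470_at and 0.00 at 1441476_at. None of these passed, and their arrays overlapped between genotypes.

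Cish read 9.34, 9.35 and 9.19 in stimulated transgenic cells and 9.65, 9.67 and 9.64 in stimulated wild type cells. The groups did not overlap, and the difference of -0.36 ± 0.089 missed the threshold (adjusted p = 0.0654). It passed in 4 of 18 alternative settings, among them array medians subtracted (-0.38). Socs1 read 7.36, 7.51 and 8.0 in transgenic cells and 7.44, 7.69 and 7.74 in wild type cells. Those arrays overlapped, and the difference was 0.00 ± 0.14 with a 95% interval from -0.30 to 0.30.

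The Socs3 differences after stimulation were -0.07, -0.17 and -0.14 (adjusted p = 0.922, 0.742 and 0.81). Socs4 1455142_at differed by -0.23 (adjusted p = 0.596) and Socs7 1434834_at by -0.29 (adjusted p = 0.538). Among the markers, 3 of 12 granulocyte and 3 of 14 monocyte and macrophage genes were higher in stimulated transgenic cells. The granulocyte sum was 488 to 575 unlogged units in stimulated transgenic cells and 371 to 386 in stimulated wild type cells. Of the plasma cell markers 2 of 4 were higher, with sums of 10400 to 11200 in transgenic cells and 6960 to 8530 in wild type cells. The actin 5′ minus 3′ difference was -1.36 in stimulated wild type replicate 1, without which the Socs2 call was lost, and -0.98 to -0.43 in the other 5 stimulated arrays. The part of these in the Socs2 difference was not tested. None of the 6 B cell markers passed.

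Whether the genotype difference itself depended on stimulation was tested as an interaction, the genotype difference in stimulated cells minus that in unstimulated cells. Of the 24 family probe sets 2 passed, both below 0, where 1.58% of all probe sets passed. For Cish the genotype difference was -0.36 in stimulated and 0.34 in unstimulated cells, and the interaction was -0.70 ± 0.13 (adjusted p = 0.0143). Cish was thus higher in transgenic cells before stimulation and rose less in them. The interaction passed in 17 of 17 alternative settings, between -0.78 and -0.61. The unstimulated wild type values of Cish lay below their array medians. For Socs6 1450129_a_at the differences were -0.23 and 0.27, and the interaction of -0.50 ± 0.11 (adjusted p = 0.0393) passed in 5 of 17 settings. It was lost without any single array other than unstimulated wild type replicates 1 and 3, at values from -0.53 to -0.45. Socs6 1435492_at went the other way, with an interaction of 0.58 ± 0.23 that did not pass (adjusted p = 0.287). At Socs6 1452764_at the interaction was -0.10 (adjusted p = 0.823).

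The genotype difference of Socs3, which passed in unstimulated and not in stimulated cells, was not shown to differ between them. Its interaction was 0.52 ± 0.16, 0.52 ± 0.18 and 0.38 at the 3 probe sets (adjusted p = 0.154, 0.213 and 0.383). For Socs4 1455142_at it was 0.68 ± 0.19 (adjusted p = 0.106), and for Socs2 1449109_at it was -0.52 ± 0.15 (adjusted p = 0.137). Of the 12 granulocyte markers 10 passed with an interaction below 0, and their part in the Cish and Socs6 values was not tested.

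Genes that work with the family were described from lists, with 1 probe set per gene, the brightest. Of all probe sets, 55.2% passed with stimulation in transgenic cells and 56.8% in wild type cells. Between genotypes 9.45% passed in unstimulated and 1.86% in stimulated cells. The list counts are to be read beside these shares, which also cover dim probe sets. Shares at an unadjusted p under 0.05 were not computed, so counts at that threshold show no tendency of a list. All 8 ubiquitin ligase partners of the SOCS box changed with stimulation in both genotypes, 6 higher and 2 lower. Eloc, an elongin that binds the SOCS box, changed by 1.15 ± 0.080 in transgenic cells and 1.36 ± 0.080 in wild type cells. Cul2, a cullin scaffold, changed by 1.06 ± 0.082 and 0.98 ± 0.082. Arih2, a ligase that works with cullin-5, changed by -1.67 ± 0.17 and -2.0 ± 0.17. Cul5, the cullin of SOCS ligases, was lower in unstimulated transgenic than in unstimulated wild type cells, at -0.56 ± 0.16 (adjusted p = 0.043), and none of the 8 passed between stimulated genotypes or at an unadjusted p under 0.05.

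Of the 10 JAK kinases and STAT factors, 3 were higher and 5 lower with stimulation in transgenic cells, and 2 higher and 5 lower in wild type cells. Stat5a, an activator of Cish and Socs2, changed by 0.90 ± 0.10 in transgenic cells and 1.40 ± 0.10 in wild type cells. Stat6, which carries the IL-4 signal, changed by -1.14 ± 0.076 and -0.98 ± 0.076. The kinase gene Jak1 changed by -1.35 ± 0.12 and -1.60 ± 0.12. None of the 10 passed between genotypes with limma in either state. At an unadjusted p under 0.05, 1 was higher and 3 were lower in stimulated transgenic cells, and 0 were higher and 2 lower in unstimulated transgenic cells. Without the share of all probe sets at that threshold, no tendency of these genes can be read from the counts.

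Of 26 cytokine receptor chains, 8 were higher and 13 lower with stimulation in transgenic cells, and 9 higher and 13 lower in wild type cells. Il4ra, the IL-4 receptor chain, changed by 1.01 ± 0.078 in transgenic and 0.87 ± 0.078 in wild type cells. Il12rb1, an IL-12 receptor chain, changed by 2.30 ± 0.091 in transgenic and 2.39 ± 0.091 in wild type cells. Il2ra, the alpha chain of the high-affinity IL-2 receptor, changed by 1.85 ± 0.095 and 1.99 ± 0.095. Between unstimulated genotypes 8 receptor chains were higher and 3 lower in transgenic cells, among them the granulocyte colony-stimulating factor receptor Csf3r at 2.35 ± 0.22 and the shared beta chain Csf2rb at 1.16 ± 0.13, beside the granulocyte marker sums given above. The interferon receptor chain Ifnar1 was lower, at -0.68 ± 0.11. Between stimulated genotypes Il27ra, of the IL-27 receptor, was the 1 receptor chain that passed, at -0.53 ± 0.11 (adjusted p = 0.021).

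Of 11 other inhibitors of JAK-STAT signalling, 4 were higher and 5 lower with stimulation in transgenic cells, and 3 higher and 7 lower in wild type cells. Usp18, which restrains the interferon receptor, changed by 3.11 ± 0.19 and 2.75 ± 0.19, and was higher in stimulated transgenic than in stimulated wild type cells by 0.86 ± 0.19 (adjusted p = 0.0426). The adaptor Sh2b3 changed by -1.63 ± 0.077 and -1.57 ± 0.077. In unstimulated cells 1 of the 11 differed between genotypes, Pias2 at -0.39 ± 0.091.

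Of 26 other SOCS box proteins, 8 were higher and 3 lower with stimulation in transgenic cells, and 9 higher and 5 lower in wild type cells. Asb2, an ankyrin repeat SOCS box protein, was higher in transgenic cells in both states, by 0.59 ± 0.10 when stimulated and 1.26 ± 0.10 when unstimulated. In unstimulated cells Spsb2 was also higher in transgenic cells, by 0.29 ± 0.080, and Asb13 was lower, at -0.57 ± 0.13.

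Of 16 cytokines of the pathway, Il6 had the largest change with stimulation, 4.70 ± 0.13 in transgenic cells and 4.60 ± 0.13 in wild type cells. Between unstimulated genotypes Il10 differed by 0.47 ± 0.12 (adjusted p = 0.0314) and Ifng by -0.53 ± 0.15 (adjusted p = 0.0418), and none of the 16 passed between stimulated genotypes (limma), with 1 higher at an unadjusted p under 0.05. Of 21 STAT target genes outside the family, 7 were higher and 14 lower with stimulation in transgenic cells, and 7 higher and 13 lower in wild type cells. Gbp2, an interferon-induced GTPase, changed by 2.97 ± 0.11 in transgenic cells and 4.58 ± 0.11 in wild type cells. In stimulated cells the transgenic minus wild type difference was -2.42 ± 0.11 (adjusted p = 5.23e-08), the largest genotype difference among the list genes named here. Ccnd2, a cyclin of cell cycle entry, was higher in unstimulated transgenic cells by 0.76 ± 0.080, and the repressor Gfi1 was lower, at -1.33 ± 0.17.

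Likeness of pattern was measured as Pearson's r over the 12 arrays on quantile-normalized values, with no test, since the arrays share 2 states. For Cish the closest genes were Tfdp1, Chchd4 and Ccnd2 (r = 0.999 each), and for Socs2 they were Imp4, Dnaaf2 and Bcat1 (r = 0.999 each). With 2904 genes above 0.95 for Cish and 2853 for Socs2, many genes follow the same step with stimulation. Socs3, whose unstimulated wild type arrays stood apart, had 10 genes above 0.95, led by Strbp (0.967), Cnn3 (0.965) and Rnft1 (0.962). Socs4 1455142_at had 5, led by Eps8 (0.972), and Socs6 1450129_a_at had 4, led by Nfix (0.97).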

How the data were processed

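Per the submitters' processing notes, the authors processed the arrays with RMA in the affy package (versions not given in the sources used here). The deposited table holds 1 log2 value per probe set and array. Of its 45101 probe sets, 64 array controls were left out. Symbols came from the platform annotation, updated through RefSeq gene IDs: 34945 probe sets had 1 symbol, 932 had several and 9160 had none, and 34741 were matched to RefSeq.

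Genotype comparisons and the interaction used the deposited log2 values. Stimulation comparisons used the same values after quantile normalization over the 12 arrays. Each was fitted with limma 3.58.1 (R 4.3.3) with 1 coefficient per group, 8 residual degrees of freedom and a constant prior. P-values were adjusted by Benjamini-Hochberg over 45037 probe sets and called under 0.05. Errors of differences are standard errors, and there are 3 arrays per group, which limits the precision. The fit was tested on simulated data for the unstimulated genotype comparison. It called 34 of 67 changes of 0.5 log2 units, 62 of 67 of 1 unit and 66 of 66 of 2 units, with 10 false calls. Fewer probe sets were changed there than were called in the real data, so these shares need not hold here.

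Named were all 8 family genes, with array values for the brightest probe set of each gene with a call and for every probe set called between genotypes, and up to 4 called genes per list and comparison. Il4ra was named after its value was seen. The members, lists and tests were chosen with earlier results of these data known. Lists have 1 probe set per gene. Some list genes were not analysed here.

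Arrays of one replicate number may share a batch. Their deviations from the group means correlated at 0.33, 0.101 and 0.178 between stimulated genotypes and at 0.318, 0.175 and 0.19 between states in wild type cells. Any pairing there rests on the data alone, and the main fits did not pair the arrays. Adding the replicate block changed no call in these comparisons (1 and 17 calls). The alternatives tried were other scalings, the replicate block, an intensity trend in the prior, dim probe sets left out (25168 kept), only the 6 arrays compared, and each array left out.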

Additional observations from a re-analysis of the deposited data

Results flagged for a closer look

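The interaction was called where the genotype difference (transgenic minus wild type) in stimulated cells differed from that in unstimulated cells. This held for 2 of the 24 family probe sets and for 8 genes on the lists of genes that work with the family. Of all probe sets, 1.58% passed. The interaction was -0.70 log2 units for Cish (adjusted p = 0.0143) and -0.50 for Socs6 1450129_a_at (adjusted p = 0.0393). At Socs6 1435492_at it was 0.58 and did not pass (adjusted p = 0.287). Among the 26 cytokine receptor chains the interaction was -1.98 for Csf3r (adjusted p = 0.00625), -1.05 for Il9r (0.0367), -0.92 for Csf2rb (0.0253) and 0.93 for Ifnar1 (0.00877). Among the 26 other SOCS box proteins it was -0.67 for Asb2 (adjusted p = 0.0399), an ankyrin repeat SOCS box protein. Among the 21 STAT target genes it was -1.82 for Gbp2 (adjusted p = 7.8e-05), -0.71 for Ccnd2 (0.0069) and 1.54 for Gfi1 (0.00563). The marker lists held such calls too. Below 0 were 10 of 12 granulocyte, 5 of 7 erythroid, 4 of 14 monocyte and macrophage and 1 of 4 plasma cell markers. Above 0 were 1 monocyte and macrophage marker and 1 of 5 platelet markers. The part of these cells in the flagged values was not tested. Groups of 3 arrays are too small for a test of single outlying arrays, and none was run.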

How the results depend on the processing

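Of 2106 values of single probe sets under alternative settings, 2004 kept their side of the threshold, 47 of them with a changed sign and no call in either setting, 52 lost a call, 39 gained one, and 11 changed sign with a call in at least one setting. The number of family probe sets called between unstimulated genotypes was 3 with only the 6 arrays compared, and 4 to 8 with single arrays left out, against 7. Between stimulated genotypes it was 2 with array medians subtracted and 0 to 2 with single arrays left out, against 1 (Socs2), and 0 without stimulated transgenic replicate 2 or 3 or stimulated wild type replicate 1 or 3; with only the 6 arrays compared the 1 call was Cish. For the interaction it was 1 with array medians subtracted, 1 with an intensity trend and 1 to 4 with single arrays left out, against 2. Leaving out arrays gave 13 to 14 calls with stimulation in transgenic cells and 15 to 19 in wild type cells. Changes with stimulation that were called in at least one setting and turned sign on the deposited scale were, in transgenic cells, Socs4 1421275_s_at (-0.39), Socs6 1450129_a_at (-0.39) and 1452764_at (-0.30) and Socs7 1420766_at (-0.27) and 1438492_at (-0.62), and in wild type cells Socs2 1441476_at (-0.03) and Socs7 1420766_at (-0.10) and 1438492_at (-0.58). With array medians subtracted, by the same count, Socs7 1455402_at (0.0167) turned in transgenic cells and Socs3 1455899_x_at (0.0833) and 1456212_x_at (0.0633) in wild type cells. The cause was not tested. The replicate block gave 9 calls between unstimulated genotypes, adding Socs6 1435492_at (-0.52) and Socs7 1455402_at (-0.34), 14 with stimulation in transgenic cells and 2 for the interaction; in the first 2 of these the numbers are not shown to pair the arrays. Probe sets near background limit what can be seen: 5 of the 24 were never above their array's median.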
